A study of Homo sapiens with 12 samples.

Results

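The genes described here are 36 human genes of the lysosome and of autophagy, chosen by name with earlier results of these data known. They comprise 3 MiT/TFE transcription factors, 6 membrane, channel and cholesterol export genes, 6 proteases, 8 glycosidases and other hydrolases or their activators, 5 genes of the V-ATPase proton pump and 8 autophagy genes. Each of the 36 symbols matched 1 row of the deposited expression table, which held 55243 rows with a symbol of their own. All 36 were among the 14722 genes tested, which had at least 1 TPM (abundance relative to all transcripts of a library, scaled for their length) in at least 3 of the 12 libraries.

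The study measured RNA by sequencing in HT1080, an established human fibrosarcoma cell line that carries a mutant NRAS, to assess the interferon response after mutant NRAS is knocked down. There were 4 groups of 3 libraries. The first received siQ61K, an siRNA against the mutant NRAS, together with poly(dA:dT), a synthetic DNA duplex used to stimulate DNA sensors in the cytosol. The second received siQ61K with DMSO, the third received siNC, the control siRNA, with poly(dA:dT), and the fourth, siNC with DMSO, had neither. Every library came from the same line, so the results describe 1 tumour cell line under 1 siRNA against NRAS, and the labels give no dose, no time and no delivery control for poly(dA:dT). The table's columns carry short names, and SI was read as siQ61K and PD as poly(dA:dT), because no other siRNA or added agent is labelled. That reading is an inference from names. Whether the 3 libraries per group were separate cultures is not stated. The p-values therefore rest on a spread between libraries that may be technical.

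Lysosomes are the acidic compartments in which cells break down material delivered by endocytosis and by autophagy. The V-ATPase pumps protons into them, hydrolases such as the cathepsins work at the resulting low pH, and autophagosomes, whose membranes carry lipidated LC3 proteins, bring cytoplasmic cargo. TFEB, TFE3 and MITF bind a short E-box motif in the promoters of many of these genes, and the kinase complex mTORC1 on the lysosomal surface keeps them in the cytoplasm when nutrients are plentiful, so their activity is set largely by where the proteins are and not by their mRNA.

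NRAS, the targeted gene, had 15.5, 15.2 and 19.9 TPM with siQ61K and DMSO, against 59.6, 60.6 and 41.4 TPM with siNC and DMSO. With poly(dA:dT) it had 20.1, 20.3 and 23.5 TPM with siQ61K, against 43.0, 45.9 and 51.7 TPM with siNC. It was lower in all 6 siQ61K libraries than in any siNC library, with log2 fold changes of -1.61 with DMSO and -1.10 with poly(dA:dT) (limma adjusted p = 2.5e-05 with DMSO and 0.00043 with poly(dA:dT)), though TPM per gene does not separate the mutant from the normal allele. Of 6 mesenchymal markers 5 reached 1 TPM, with VIM at 4728 to 7742 TPM and THY1 at most at 0.126 TPM. Their summed level was 5236 to 6057 TPM with siQ61K and poly(dA:dT), 6073 to 8559 TPM with siQ61K and DMSO, 6954 to 7645 TPM with siNC and poly(dA:dT) and 6564 to 7209 TPM with siNC and DMSO. Of the 5 epithelial markers none reached 1 TPM (highest 0.258 TPM), nor did VWF and CDH5 of the endothelium (highest 0.323 TPM). CSF1R alone of 5 leukocyte markers and DCT and PMEL of 4 melanocyte markers reached 1 TPM, at most 8.52 TPM. TPM keeps no record of sequencing depth, which is therefore not known. Libraries of a group correlated at 0.966 to 0.984 (Pearson, log2(TPM + 1)). The rank correlation across genes between a library's deviation from the gene means and the GC content of the longest transcript ran from -0.49 in siNC DMSO replicate 1 to 0.51 in siQ61K DMSO replicates 1 and 2. This trend moves with the groups, so counts of calls are also given after each library's trend with GC content and transcript length was removed. Counts are also given without replicate 3 of siQ61K with DMSO and replicate 2 of siQ61K with poly(dA:dT), a choice taken over from an earlier analysis of these data. By its mean correlation with the other libraries of its group, replicate 3 of siQ61K with DMSO stood at 0.976, the lowest of its group. Replicate 2 of siQ61K with poly(dA:dT) stood at 0.970, between the 0.968 and 0.972 of the others.

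Promoters are shown for the genes that carry the 6-letter E-box CACGTG, the core of the motif bound by the MiT/TFE factors. RefSeq promoter windows (GRCh38.p14, 250 bases before to 50 after the start of the gene) were found for 28 of the 36 genes, and 8 of the 28 held CACGTG. PSAP, CTSB, ATP6V1A, HEXA, UVRAG, LAMP2, ATP6V1B2 and ATP6V1H had no entry. The letters read the same on both strands, so 1 search covers both. Below, capitals mark each copy, and positions are counted from the start of the gene.
The LAMP1 stretch (chr13:113297025-113297238, plus strand) spans 5 of its 6 copies, at -192, -176, -159, -142 and -28.
LAMP1: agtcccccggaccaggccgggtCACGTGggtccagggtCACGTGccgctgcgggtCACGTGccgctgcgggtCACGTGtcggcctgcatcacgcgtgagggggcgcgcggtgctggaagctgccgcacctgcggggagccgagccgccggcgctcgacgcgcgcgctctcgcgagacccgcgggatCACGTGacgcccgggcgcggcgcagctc
The GAA stretch (chr17:80101483-80101577, plus strand) has copies at -76 and -31.
GAA: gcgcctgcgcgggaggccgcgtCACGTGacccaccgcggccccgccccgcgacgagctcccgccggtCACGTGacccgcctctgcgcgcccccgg
The MCOLN1 stretch (chr19:7522561-7522623, plus strand) has copies at -41 and -14.
MCOLN1: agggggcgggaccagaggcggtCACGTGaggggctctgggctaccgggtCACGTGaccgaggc
The CTSA stretch (chr20:45891271-45891334, plus strand) has copies at -42 and -25.
CTSA: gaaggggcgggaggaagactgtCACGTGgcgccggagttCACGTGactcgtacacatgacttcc
ATP6V0D1 (chr16:67481189-67481238, minus strand), CTSD (chr11:1763947-1763996, minus strand), NEU1 (chr6:31862920-31862969, minus strand) and CD63 (chr12:55729162-55729211, minus strand) have 1 copy each, at -59, -47, -126 and -180.
ATP6V0D1: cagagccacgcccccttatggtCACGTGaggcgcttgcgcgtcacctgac
CTSD: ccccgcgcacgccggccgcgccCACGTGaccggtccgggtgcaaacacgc
NEU1: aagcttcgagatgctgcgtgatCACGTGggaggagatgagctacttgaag
CD63: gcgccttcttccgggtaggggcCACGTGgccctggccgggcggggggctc

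Of all 35116 promoter windows in the RefSeq table, 7.256% held CACGTG, and of the 10301 genes tested that had a window, 10.251% did. The longer palindrome TCACGTGA, which contains it, was in 0.98% of all windows and was not counted over the genes tested. It was in 5 of the 28, those of LAMP1, ATP6V0D1, GAA, MCOLN1 and CTSA. Many genes of this kind are known for the motif, so its share among the 28 is no test. All 8 genes with the E-box were among the 16 genes with a window that were called higher under siQ61K with DMSO, and none of the 12 others with a window had it. After GC and length correction the 8 were still called higher. With poly(dA:dT), 5 of the 8 were called higher as deposited, and CTSD, CD63 and MCOLN1 were not. After GC and length correction CTSD was called higher there too, while CD63 and MCOLN1 were not. Genes whose windows lack CACGTG were called higher in both treatments. With poly(dA:dT) these were NPC2, TPP1, GLB1, PPT1, SQSTM1, MAP1LC3B and BECN1, and with DMSO they included TPP1, GLB1 and SQSTM1. The split seen with DMSO was not repeated in full with poly(dA:dT), because some genes with CACGTG were not called higher. For poly(dA:dT) all genes were not counted. Over all genes tested that had a window, CACGTG was in 13.199% of those called higher in the knockdown with DMSO. It was in 8.21% of those called lower and 9.96% of those not called in that comparison, which also holds for the lists that follow. Of the other lysosomal genes with a window, 6 of the 14 called higher held CACGTG, 0 of the 2 called lower and 0 of the 11 not called. Of the mTORC1 and regulator genes it was in 3 of 5 called higher, 0 of 2 called lower and 4 of 12 not called. Of the other autophagy genes it was in 0 of 8 called higher, 1 of 5 called lower and 2 of 17 not called, and of the other V-ATPase subunits in 1 of 5 called higher and 1 of 5 not called. These matches are a description of letters in a window and not of bound sites.

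Levels of the 36 genes covered most of the range of expressed genes. By their mean over the 12 libraries, PSAP (584 TPM), CTSB (558 TPM), SQSTM1 (408 TPM) and CD63 (313 TPM) were the most abundant, each above 97% of the genes tested. At the low end stood MITF, TFEB (8.40 TPM), UVRAG (12.7 TPM) and MCOLN1 (13.4 TPM). MITF was listed at 0 TPM in 3 libraries and reached 5.42 TPM at most. Neighbours in this order often overlapped: in siNC cells with DMSO, PSAP had 459, 473 and 447 TPM and CTSB 374, 461 and 509.6 TPM. Under siQ61K with DMSO the order of the leading 3 was CTSB, PSAP and SQSTM1, with CTSB at 849.8, 706 and 939 TPM and PSAP at 772, 753 and 838 TPM, which overlapped as well. TFE3 was the most abundant MiT/TFE mRNA in each group.

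**Figure D1:**
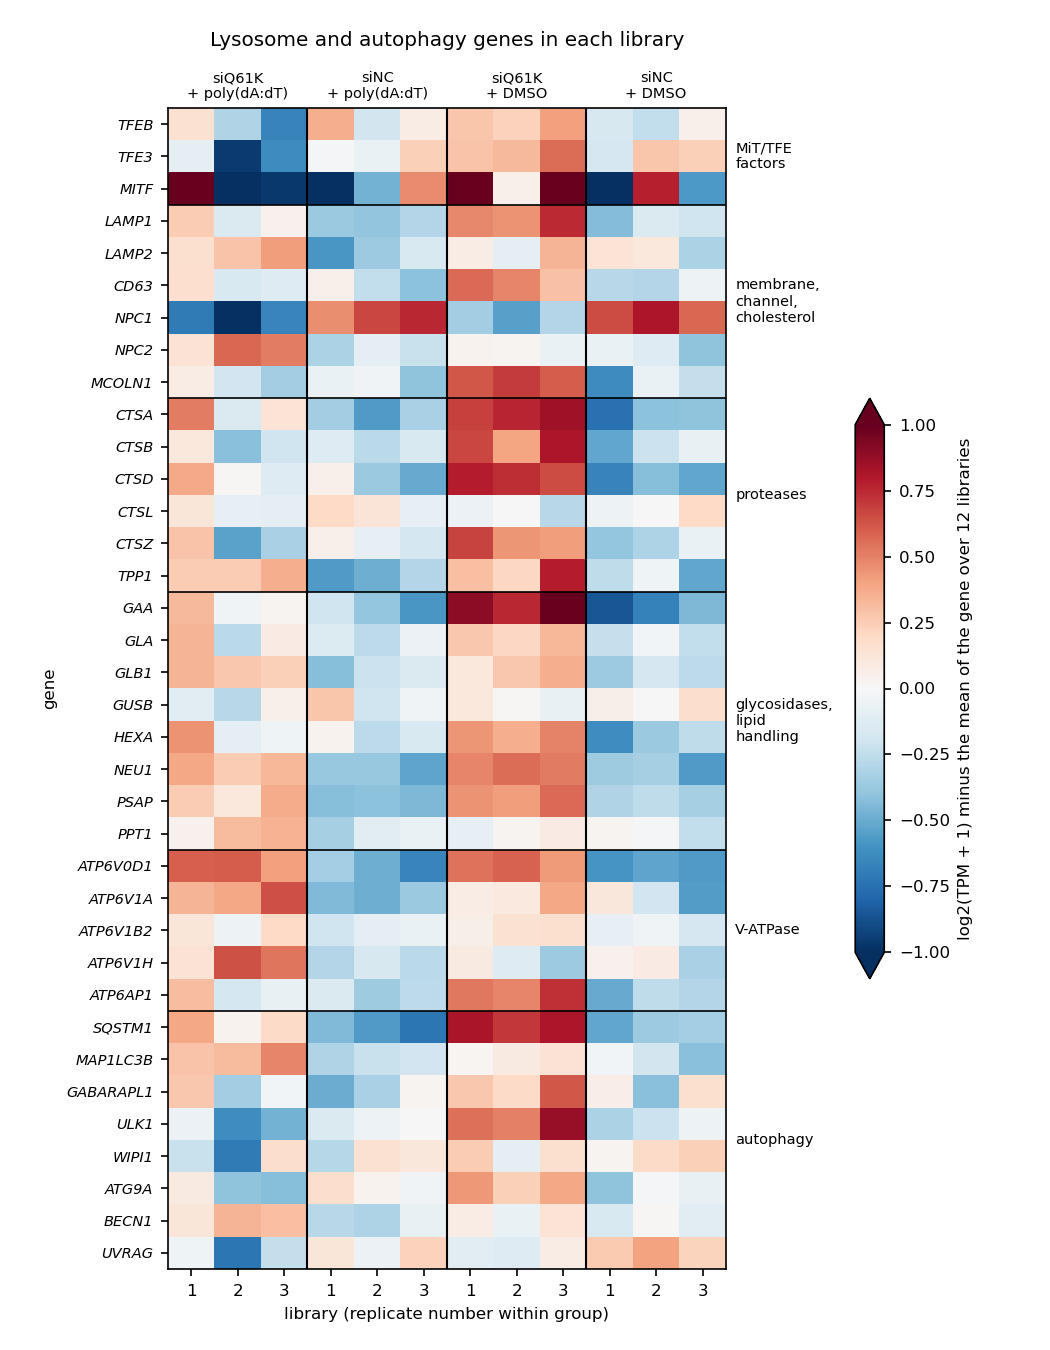
Heat map of the 36 genes (rows, grouped by role) in the 12 libraries (columns, 3 per group), coloured by log2(TPM + 1) minus the gene's mean over the 12 libraries, with the darkest colours at 1 or more in size. Most lysosomal rows are red in the siQ61K DMSO columns, NPC1 is blue in all 6 siQ61K columns, and MITF, the lowest gene, varies within every group.

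The first comparison asked what knockdown changed with DMSO. Most hydrolase genes of the lysosome were higher with siQ61K: 19 of the 36 genes were called higher and 1 lower (limma on log2(TPM + 1), adjusted p under 0.05 over all genes), where 16.6% of all 14722 genes were called higher and 14.8% lower. The median log2 fold change of the 36 was 0.51, beside 0.01 over all genes. Among the genes called, the largest changes were in GAA, CTSA, CTSD, SQSTM1 and ATP6V0D1, and the single gene lower was NPC1. Median-of-ratios scaling and quantile normalization gave the counts 19 and 1 again, and without replicate 3 of siQ61K DMSO and replicate 2 of siQ61K poly(dA:dT) the counts were 18 and 2. Of all genes 33.3%, 34.0% and 30.4% were called in these fits, in that order. After GC and length correction 21 were called higher and 2 lower, where 11.8% of all genes were higher and 11.4% lower, with a median of 0.49; 17 were higher and 1 lower in both fits. All 3 siQ61K libraries stood above all 3 siNC libraries for 24 of the genes and below for 2, against 25.4% and 20.4% of all genes. In bulk RNA, fewer cells of a type and less RNA per cell cannot be told apart.

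The mRNAs of the MiT/TFE factors were not called. TFEB had 10.2, 9.78 and 11.2 TPM with siQ61K, against 7.25, 6.76 and 8.55 TPM with siNC. All 3 siQ61K libraries were above the siNC libraries, with a log2 fold change of 0.42 (95% interval -0.03 to 0.87, limma adjusted p = 0.14). TFE3 had 34.7, 35.6 and 42.0 TPM with siQ61K, against 25.0, 34.4 and 33.5 TPM with siNC, which did not overlap but lay close at the edge, and its interval ran from -0.16 to 0.70. MITF, also known as the master regulator of melanocytes, had 3.64, 1.18 and 5.42 TPM with siQ61K, against 0, 2.61 and 0.414 TPM with siNC. Its libraries overlapped and its interval was the widest of the 36, -0.18 to 2.62.

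Of the 6 membrane, channel and cholesterol export genes, 3 were called higher and 1 lower. MCOLN1, the calcium channel of the lysosomal membrane, had 20.1, 21.3 and 19.9 TPM with siQ61K, against 7.88, 12.1 and 10.7 TPM with siNC. The siQ61K libraries lay close together and far above the siNC libraries, and limma gave a log2 difference of 0.95 (SE 0.17, adjusted p = 0.0014) against 0.56 after GC and length correction. LAMP1, a glycoprotein that lines the inside of the lysosomal membrane, had 317, 311 and 381 TPM with siQ61K, against 168, 205 and 198 TPM with siNC. CD63, a tetraspanin of late endosomes and lysosomes, had 453, 429 and 375 TPM with siQ61K, against 251, 249 and 296 TPM with siNC. Neither gene's groups overlapped, and the log2 fold changes were 0.82 for LAMP1 and 0.66 for CD63. The pair that exports cholesterol from the lysosome did not move together. NPC1, its membrane transporter, had 122, 106 and 126 TPM with siQ61K, against 244, 272 and 232 TPM with siNC. Every siQ61K library was below every siNC library, and limma gave a log2 difference of -1.07 (SE 0.17, adjusted p = 0.00049). NPC2, the soluble partner that hands cholesterol to NPC1, had 197, 197 and 183 TPM with siQ61K, against 184, 176 and 146 TPM with siNC. LAMP2, the other abundant lysosomal membrane glycoprotein, had 96.0, 85.1 and 115 TPM with siQ61K, against 100.1, 98.2 and 73.1 TPM with siNC. Both overlapped between groups as deposited and were not called, while after correction both were called higher, with log2 fold changes of 0.39 for NPC2 (limma adjusted p = 0.013) and 0.48 for LAMP2 (limma adjusted p = 0.0064).

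Of the 6 proteases, 5 were called higher as deposited and after correction. CTSA, a carboxypeptidase that also protects NEU1 and GLB1 from breakdown, had 220.1, 232 and 246 TPM with siQ61K, against 81.0, 102 and 103 TPM with siNC. CTSD, the aspartic protease of the lysosome, had 429, 414 and 391 TPM with siQ61K, against 156, 185 and 173 TPM with siNC. For both genes the lowest siQ61K library was far above the highest siNC library. In limma the log2 difference was 1.28 (SE 0.15, adjusted p = 8.8e-05) for CTSA. That of CTSD was 1.26 (SE 0.15, adjusted p = 9.4e-05) in limma. CTSB, a cysteine protease and the most abundant cathepsin of the list, had 849.8, 706 and 939 TPM with siQ61K, against 374, 461 and 509.6 TPM with siNC. It too did not overlap, at 0.89 (SE 0.15, adjusted p = 0.00084) in limma. CTSZ, a cysteine carboxypeptidase, had 128, 109 and 107 TPM with siQ61K, against 60.7, 64.1 and 76.1 TPM with siNC. TPP1, a tripeptidyl peptidase, had 68.5, 63.9 and 95.9 TPM with siQ61K, against 46.2, 53.6 and 38.3 TPM with siNC. These rose by less, 0.77 for CTSZ and 0.70 for TPP1 on the log2 scale, and in TPP1 replicate 3 of siQ61K lay well above replicates 1 and 2. CTSL, a cysteine endopeptidase, had overlapping libraries and a log2 fold change of -0.16 as deposited, and was called lower only after correction (-0.26, limma adjusted p = 0.038).

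Of the 8 glycosidases, lipid-handling proteins and the thioesterase, 6 were called higher in both fits. GAA, the acid glucosidase that degrades glycogen, had 46.7, 42.2 and 57.1 TPM with siQ61K, against 13.1, 15.0 and 17.8 TPM with siNC. The siQ61K libraries did not come near the siNC libraries, and GAA had the highest log2 fold change of the 36, 1.61 (SE 0.16, adjusted p = 2.6e-05) in limma and 1.12 after correction. NEU1, the lysosomal sialidase, had 59.1, 62.2 and 60.4 TPM with siQ61K, against 32.5, 33.1 and 27.9 TPM with siNC. The groups were tight and apart, at 0.94 (SE 0.10, adjusted p = 5.7e-05) in limma. HEXA, the alpha subunit of beta-hexosaminidase, had 133, 126 and 138 TPM with siQ61K, against 63.1, 75.2 and 81.7 TPM with siNC. These too did not overlap, at 0.85 (SE 0.15, adjusted p = 0.0011) in limma. PSAP, the precursor of the saposins that present lipids to hydrolases, had 772, 753 and 838 TPM with siQ61K, against 459, 473 and 447 TPM with siNC. GLB1, a beta-galactosidase, had 45.5, 50.9 and 54.3 TPM with siQ61K, against 32.5, 37.3 and 34.9 TPM with siNC. GLA, an alpha-galactosidase, had 41.3, 39.5 and 43.1 TPM with siQ61K, against 28.9, 33.4 and 28.5 TPM with siNC. In all 3 the siQ61K libraries were the higher ones, by 0.78 for PSAP, 0.51 for GLB1 and 0.44 for GLA on the log2 scale. GLA was lost without any 1 of the siQ61K libraries and without siNC replicate 1 or 3 (limma adjusted p 0.058 to 0.10). PPT1, which removes palmitate from proteins, had 85.6, 92.2 and 96.0 TPM with siQ61K, against 92.4, 89.8 and 76.1 TPM with siNC, which overlapped. GUSB, a beta-glucuronidase with several pseudogenes that could take some of its reads, was not called either, with an interval of -0.36 to 0.23.

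In the V-ATPase group 2 of 5 genes were called higher as deposited. ATP6V0D1, a subunit of the membrane sector, had 139.6, 144 and 129 TPM with siQ61K, against 63.1, 65.7 and 63.9 TPM with siNC. Each group was tight and the siQ61K libraries stood far above the siNC libraries, at 1.08 (SE 0.10, adjusted p = 2e-05) in limma, in log2 units, and 0.75 after correction. ATP6AP1, an accessory subunit, had 88.1, 85.9 and 102 TPM with siQ61K, against 42.8, 51.1 and 49.6 TPM with siNC. It did not overlap, at 0.93 (SE 0.14, adjusted p = 0.00036) in limma. ATP6V1A, the catalytic subunit, had 74.8, 76.4 and 93.5 TPM with siQ61K, against 77.2, 62.4 and 47.9 TPM with siNC, which overlapped, siNC replicate 1 being high. ATP6V1H, a regulatory subunit, had 70.4, 60.4 and 51.0 TPM with siQ61K, against 68.1, 70.1 and 52.7 TPM with siNC, with no order between the groups. ATP6V1A and the nucleotide-binding subunit ATP6V1B2 were called higher only after correction, at 0.66 for ATP6V1A and 0.46 for ATP6V1B2.

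Of the 8 autophagy genes, 3 were called higher as deposited, and SQSTM1 alone in both fits. SQSTM1, a receptor that ties ubiquitinated cargo to the autophagosome, had 668, 618 and 665 TPM with siQ61K, against 265, 294 and 299 TPM with siNC. Its siQ61K libraries stood far above the siNC libraries, at 1.18 (SE 0.11, adjusted p = 1.4e-05) in limma, in log2 units, and 0.86 after correction. ULK1, the kinase that starts autophagy, had 22.2, 21.5 and 28.0 TPM with siQ61K, against 11.7, 12.6 and 14.3 TPM with siNC. ATG9A, the membrane protein of the vesicles that seed autophagosomes, had 54.9, 47.8 and 53.3 TPM with siQ61K, against 30.3, 40.1 and 38.4 TPM with siNC. Both sets of libraries were apart as deposited, at 0.84 for ULK1 and 0.52 for ATG9A, yet neither was called after correction (0.34 and 0.14, limma adjusted p = 0.11 for ULK1 and 0.39 for ATG9A). ATG9A was also lost without siQ61K replicate 1 or 3 or siNC replicate 1 (limma adjusted p 0.052 to 0.10). MAP1LC3B, an LC3 protein of the autophagosome membrane, had 69.3, 73.0 and 75.8 TPM with siQ61K, against 67.0, 60.3 and 51.1 TPM with siNC. BECN1, the scaffold of the lipid kinase complex of autophagy, had 72.6, 65.9 and 75.9 TPM with siQ61K, against 61.8, 69.6 and 63.8 TPM with siNC. MAP1LC3B did not overlap and BECN1 did, and neither was called. GABARAPL1, a relative of LC3, WIPI1, a lipid-binding protein of the forming autophagosome, and UVRAG, a partner of BECN1, were not called in either fit. Their log2 fold changes were 0.43 for GABARAPL1, -0.05 for WIPI1 and -0.35 for UVRAG. The siQ61K libraries stood above the siNC libraries for GABARAPL1 and below for UVRAG, and overlapped for WIPI1. Without replicate 3 of siQ61K DMSO and replicate 2 of siQ61K poly(dA:dT), UVRAG was called lower (-0.42, limma adjusted p = 0.048). Near-identical copies of MAP1LC3B and GABARAPL1 exist in the genome, so reads of these genes could be split.

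**Figure D2:**
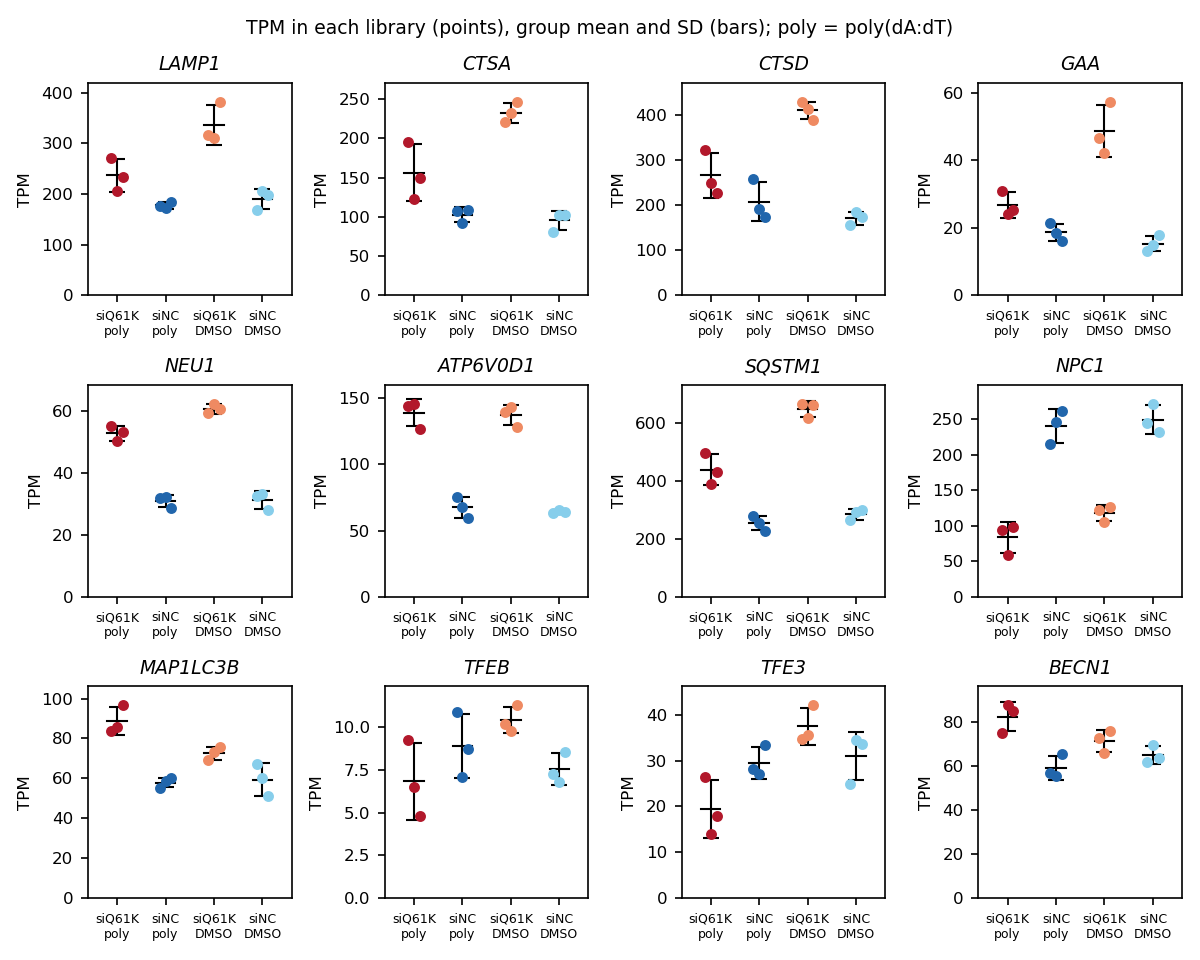
TPM of 12 of the genes in each library (points), with the group mean and SD (black bars, n = 3 libraries per group), all axes from 0. LAMP1, CTSA, CTSD, GAA, NEU1, ATP6V0D1 and SQSTM1 are higher with siQ61K and DMSO than with siNC and DMSO, NPC1 is lower, and TFEB and TFE3 were not called in that comparison. TFE3 averages 19.5 TPM with siQ61K and poly(dA:dT) and 29.5 to 37.4 TPM in the other groups. As deposited it was called lower there than with siNC and poly(dA:dT) and than with siQ61K and DMSO.

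Other genes of the pathway were counted in the same fit, where 16.6% of all genes were called higher and 14.8% lower (11.8% and 11.4% after correction). Of 41 other lysosomal genes tested, 22 were called higher and 2 lower, with a median log2 fold change of 0.51, beside 0.01 over all genes (24 higher and 2 lower after correction). IDUA, an iduronidase, had 28.8 ± 3.55 TPM with siQ61K against 9.13 ± 1.57 TPM with siNC (SD, n = 3 each). ARSA, a sulfatase, had 37.4 ± 2.29 TPM with siQ61K against 14.4 ± 2.76 TPM with siNC. These were higher by 1.56 for IDUA and 1.34 for ARSA on the log2 scale. GNPTG, a subunit of the enzyme that tags hydrolases for the lysosome, had 101 ± 5.29 TPM with siQ61K against 40.2 ± 3.72 TPM with siNC, a log2 fold change of 1.31. The lowest log2 fold change of the 41 was -1.14. Of 12 other V-ATPase subunits, 5 were higher and none lower, led by ATP6V0C (0.69), ATP6V0A1 (0.68), ATP6V1F (0.68) and ATP6V1G1 (0.57) on the log2 scale, but 2 of the 12 were called after correction. Of 36 autophagy genes tested outside the list, 8 were higher and 6 lower, shares near those of all genes, with a median of -0.01 (6 and 4 after correction). ATG2A, a lipid transfer protein, had 21.3 ± 0.695 TPM with siQ61K against 7.83 ± 0.817 TPM with siNC, and TOLLIP, a cargo receptor, 50.5 ± 4.74 TPM with siQ61K against 20.7 ± 1.86 TPM with siNC. ATG12, of the conjugation machinery, had 22.7 ± 4.87 TPM with siQ61K against 45.7 ± 11.6 TPM with siNC, and BNIP3, a receptor for mitochondria, 59.8 ± 1.49 TPM with siQ61K against 115 ± 13.4 TPM with siNC, so the first pair was higher and the second lower with siQ61K. Of 26 genes of mTORC1 and other regulators of the MiT/TFE factors, 8 were higher and 2 lower (6 and 1 after correction). They were led by FLCN, which regulates the Rag GTPases (0.96 on the log2 scale), AKT1S1, an mTORC1 inhibitor (0.88), LAMTOR1, which anchors mTORC1's docking complex to the lysosome (0.74), and MLST8, an mTORC1 subunit (0.71, not called after correction).

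Knockdown was compared again in cells given poly(dA:dT), in the 6 libraries that the first comparison did not set against each other. The p-values also rest on the DMSO libraries, because 1 spread was estimated over all 12 libraries. Here 16 of the 36 genes were called higher and 2 lower, where 8.71% of all genes were called higher and 12.6% lower. The median log2 fold change of the 36 was 0.25, beside -0.07 over all genes. ATP6V0D1, ATP6V1A, SQSTM1, NEU1 and TPP1 led, and NPC1 was again lower. Without replicate 3 of siQ61K DMSO and replicate 2 of siQ61K poly(dA:dT) the counts were 15 and 1, where 15.9% of all genes were called. A fit of only the groups compared called 12 higher and 1 lower, where 15.6% of all genes were called. After GC and length correction 18 were higher and 1 lower, where 9.75% of all genes were higher and 14.2% lower. All 3 siQ61K libraries were above the siNC libraries for 17 genes and below for 2, against 15.6% and 21% of all genes. The direction split over all genes depends on scaling: 40.8% of the calls were higher as deposited, 51.3% after median-of-ratios scaling and 51.2% after quantile normalization. Of the 36 genes, 18 were higher and 2 lower after median-of-ratios scaling, and 19 and 1 after quantile normalization. Of all genes 22.6% and 22.4% were called in these fits.

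Among the MiT/TFE factors, TFEB had 9.22, 6.48 and 4.78 TPM with siQ61K, against 10.8, 7.09 and 8.68 TPM with siNC, which overlapped. TFE3 had 26.5, 14.0 and 17.9 TPM with siQ61K, against 28.1, 27.0 and 33.5 TPM with siNC. The siQ61K libraries lay below the siNC libraries, narrowly for siQ61K replicate 1, and TFE3 was called lower at -0.61 (SE 0.20, adjusted p = 0.044) in limma. It was not called after correction (-0.45, limma adjusted p = 0.092). Of the 12 fits that each left out 1 library the call held in 3, those without siQ61K poly(dA:dT) replicate 1, siQ61K DMSO replicate 3 or siNC DMSO replicate 1 (limma adjusted p 0.051 to 0.18 in the others, the highest without siQ61K poly(dA:dT) replicate 2). MITF had 3.69, 0 and 0.0753 TPM with siQ61K, against 0, 0.518 and 1.91 TPM with siNC, with no order between the groups.

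Of the membrane and cholesterol genes, 3 were called higher and 1 lower in both fits. LAMP2 had 102, 111 and 122 TPM with siQ61K, against 60.5, 70.6 and 82.1 TPM with siNC. It did not overlap, at 0.65 (SE 0.16, adjusted p = 0.0097) in limma. NPC2 had 213, 287 and 275 TPM with siQ61K, against 154, 181 and 165 TPM with siNC, again with no overlap, at 0.62 (SE 0.13, adjusted p = 0.004) in limma. NPC1 had 94.7, 59.1 and 97.9 TPM with siQ61K, against 215, 247 and 262 TPM with siNC. The siQ61K libraries were below every siNC library by a wide margin, and the log2 difference, -1.54 (SE 0.17, adjusted p = 3.7e-05) in limma, was the largest in size of the 36 in this comparison. LAMP1 had 271, 205 and 234 TPM with siQ61K, against 176, 173 and 185 TPM with siNC. It did not overlap and was called at 0.40, but not without siQ61K poly(dA:dT) replicate 1 or 3 or any 1 of the siNC poly(dA:dT) libraries (limma adjusted p 0.057 to 0.096). CD63 had 344, 275 and 279.9 TPM with siQ61K, against 317, 257 and 229 TPM with siNC. MCOLN1 had 13.5, 11.0 and 9.80 TPM with siQ61K, against 12.1, 12.4 and 9.43 TPM with siNC. Both overlapped and were not called, with intervals of -0.12 to 0.46 for CD63 and -0.36 to 0.38 for MCOLN1.

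Of the proteases, TPP1 and CTSA were called higher in both fits. TPP1 had 66.3, 66.4 and 71.6 TPM with siQ61K, against 37.1, 39.3 and 45.0 TPM with siNC. The groups were tight and apart, at 0.74 (SE 0.16, adjusted p = 0.0053) in limma. CTSA had 195, 123 and 149.9 TPM with siQ61K, against 107, 91.9 and 109 TPM with siNC. It did not overlap, at 0.58 and 0.74 after correction; without siNC poly(dA:dT) replicate 2 it was not called (limma adjusted p 0.071). CTSD had 323, 250.3 and 228 TPM with siQ61K, against 258, 192 and 175 TPM with siNC. CTSB had 577, 401 and 467 TPM with siQ61K, against 490.4, 445 and 481 TPM with siNC. CTSZ had 97.0, 54.6 and 63.6 TPM with siQ61K, against 82.7, 75.2 and 70.3 TPM with siNC. All 3 overlapped and none was called as deposited, while CTSD was called higher after correction (0.53, limma adjusted p = 0.0033). CTSL was not called in either fit.

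Of the 8 glycosidases and related genes, 5 were called higher in both fits. NEU1 had 54.9, 50.2 and 53.0 TPM with siQ61K, against 32.0, 32.0 and 28.8 TPM with siNC. PSAP had 672, 608 and 732 TPM with siQ61K, against 421, 424 and 413 TPM with siNC. Both groups of libraries were well apart in each gene, at 0.75 (SE 0.10, adjusted p = 0.00029) for NEU1 in limma. The value for PSAP was 0.67 (SE 0.09, adjusted p = 0.00016) in limma. GLB1 had 53.6, 50.8 and 49.8 TPM with siQ61K, against 31.1, 36.2 and 38.0 TPM with siNC. GAA had 31.0, 24.0 and 25.1 TPM with siQ61K, against 21.3, 18.6 and 16.1 TPM with siNC. PPT1 had 93.3, 113 and 115 TPM with siQ61K, against 71.6, 84.0 and 86.6 TPM with siNC. None of these 3 overlapped, with log2 fold changes of 0.54 for GLB1, 0.49 for GAA and 0.40 for PPT1. GAA was lost without any 1 of the siQ61K poly(dA:dT) libraries, siNC poly(dA:dT) replicate 2 or 3, siQ61K DMSO replicate 1 or siNC DMSO replicate 2 (limma adjusted p 0.057 to 0.15). PPT1 was lost without siQ61K poly(dA:dT) replicate 2 or 3 or siNC poly(dA:dT) replicate 1 or 2 (limma adjusted p 0.057 to 0.11). HEXA had 133, 91.4 and 94.8 TPM with siQ61K, against 100.2, 81.3 and 87.7 TPM with siNC, and GLA had 43.3, 28.1 and 36.1 TPM with siQ61K, against 30.8, 28.2 and 32.6 TPM with siNC. Both overlapped and neither was called, nor was GUSB.

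The V-ATPase genes were higher in 3 of 5 cases as deposited. ATP6V0D1 had 144, 146 and 127 TPM with siQ61K, against 75.0, 67.5 and 59.8 TPM with siNC. As with DMSO, the siQ61K libraries stood far above the siNC libraries, at 1.04 (SE 0.10, adjusted p = 2.2e-05) in limma and 1.18 after correction. ATP6V1A had 90.5, 93.5 and 112 TPM with siQ61K, against 52.1, 50.6 and 54.9 TPM with siNC. The groups were far apart, at 0.89 (SE 0.16, adjusted p = 0.0016) in limma. ATP6V1H had 73.3, 103 and 96.0 TPM with siQ61K, against 53.7, 59.1 and 54.7 TPM with siNC, also without overlap, at 0.68 (SE 0.16, adjusted p = 0.0083) in limma. ATP6AP1 had 75.9, 53.7 and 57.9 TPM with siQ61K, against 54.9, 47.5 and 50.5 TPM with siNC. Its siQ61K replicate 2 fell among the siNC libraries, and it was called after correction only, at 0.41 (limma adjusted p = 0.013). ATP6V1B2 was not called in either fit.

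Of the autophagy genes, SQSTM1, MAP1LC3B and BECN1 were called higher in both fits. SQSTM1 had 496, 389 and 433 TPM with siQ61K, against 279.5, 256 and 229 TPM with siNC. The lowest siQ61K library was well above the highest siNC library, at 0.78 (SE 0.11, adjusted p = 0.00027) in limma. MAP1LC3B had 83.8, 85.5 and 96.6 TPM with siQ61K, against 55.4, 58.5 and 60.0 TPM with siNC. It was apart as clearly, at 0.60 (SE 0.11, adjusted p = 0.0024) in limma. BECN1 had 75.0, 87.6 and 85.0 TPM with siQ61K, against 56.8, 55.3 and 65.4 TPM with siNC, without overlap, and a log2 fold change of 0.47. ULK1 had 14.2, 9.29 and 10.4 TPM with siQ61K, against 13.3, 14.3 and 14.8 TPM with siNC. ATG9A had 43.0, 30.4 and 29.8 TPM with siQ61K, against 45.8, 41.4 and 39.4 TPM with siNC. Both overlapped and were not called, with intervals of -0.67 to 0.04 for ULK1 and -0.64 to 0.03 for ATG9A. GABARAPL1, WIPI1 and UVRAG were not called.

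**Figure D3:**
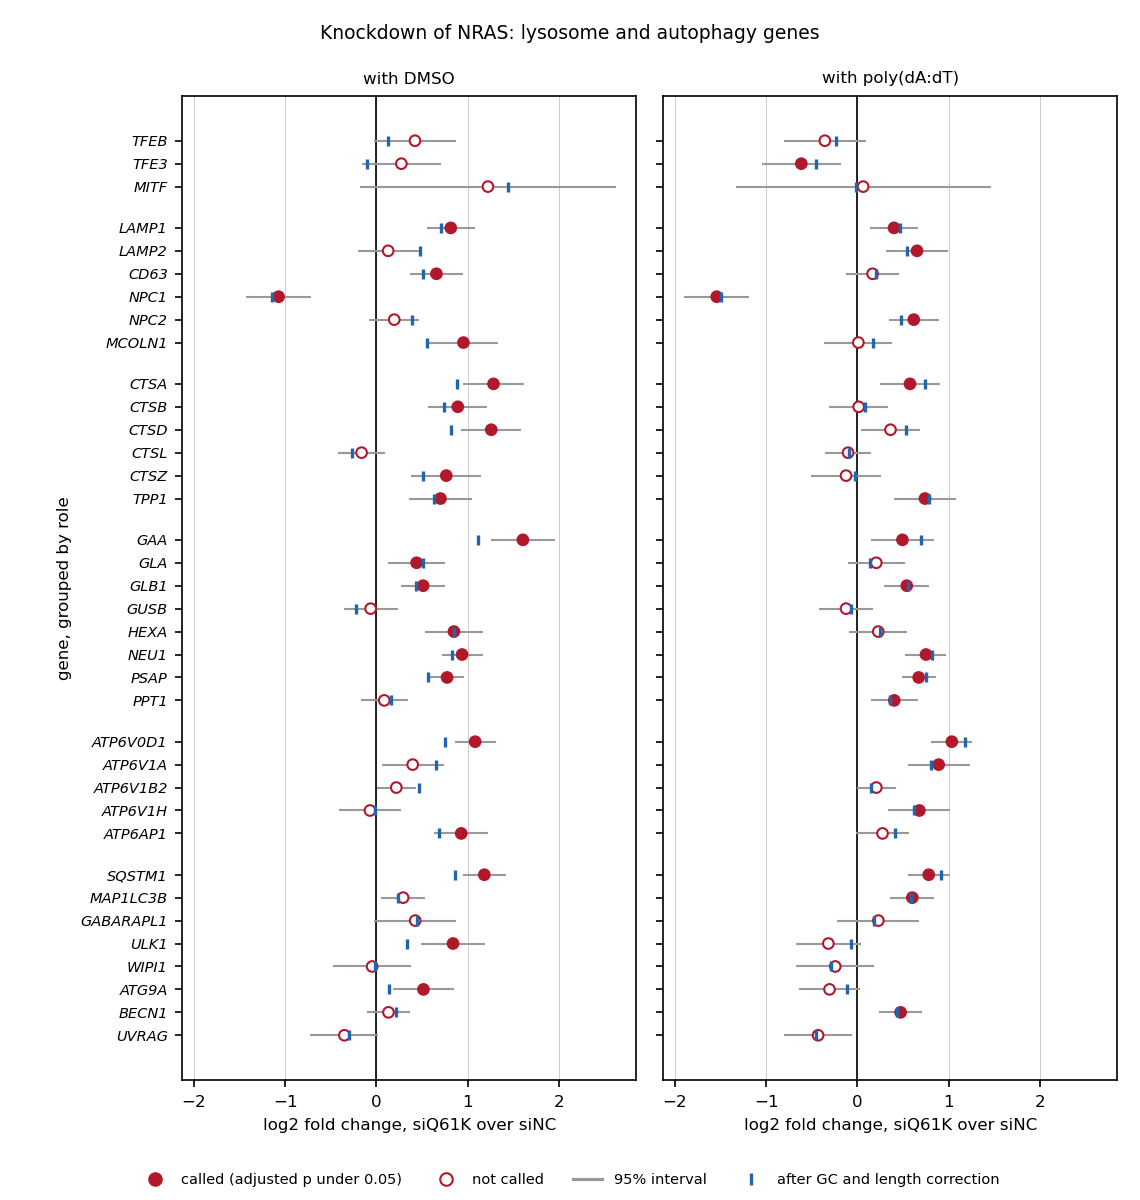
Log2 fold change of each gene, siQ61K over siNC, with DMSO (left) and with poly(dA:dT) (right). Filled circles were called (limma adjusted p under 0.05), grey lines are 95% intervals, and blue bars give the value after GC and length correction; ATP6V0D1, SQSTM1 and NEU1 are filled on the right in both panels and NPC1 on the left.

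As deposited, 9 genes were called higher in both knockdown comparisons (LAMP1, CTSA, TPP1, GAA, GLB1, NEU1, PSAP, ATP6V0D1 and SQSTM1) and NPC1 was lower in both; over all genes these shares were 3.94% and 4.56%. The same 9 and NPC1 were called in both comparisons in both fits. After correction the count was 14 higher and 1 lower, where 5.26% and 6.72% of all genes were, the added genes being LAMP2, NPC2, CTSD, ATP6V1A and ATP6AP1. TFEB, MITF, GUSB, GABARAPL1, WIPI1 and UVRAG were called in neither comparison in either fit. The 10 called higher with DMSO only, among them CTSD, CTSB, MCOLN1 and ULK1, had a GC content of 47.0 to 64.2% (median 56.6%). The 7 called higher with poly(dA:dT) only, LAMP2, NPC2, PPT1, ATP6V1A, ATP6V1H, MAP1LC3B and BECN1, had 37.7 to 50.4% (median 45.2%). Whether a gene's knockdown change differed between the treatments is the same contrast as the interaction described below. As deposited it was called for 7 of the 10 (CTSB, CTSD, CTSZ, MCOLN1, ATP6AP1, ULK1 and ATG9A) and for ATP6V1H among the 7, and for none of them after correction. Over all genes 6% were called higher and 12.1% lower in the interaction. The 10 and the 7 were picked by a call in only 1 of the comparisons, which favours a call of their difference. These counts are therefore no test. The GC content of the 9 called higher in both was 50.7 to 64.1% (median 54.7%).

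With poly(dA:dT), 13 of the 41 other lysosomal genes were called higher and 1 lower (19 and 2 after correction), with a median log2 fold change of 0.36. Over all genes 8.71% were higher and 12.6% lower (9.75% and 14.2% after correction). LIPA, the acid lipase, had 107 ± 5.10 TPM with siQ61K against 40.3 ± 3.62 TPM with siNC (SD, n = 3 each). CTSO, a minor cathepsin, had 6.99 ± 0.903 TPM with siQ61K against 2.26 ± 0.413 TPM with siNC, ASAH1, the acid ceramidase, 77.0 ± 2.71 TPM with siQ61K against 34.2 ± 6.56 TPM with siNC, and LGMN, an asparagine-specific protease, 87.1 ± 9.23 TPM with siQ61K against 39.0 ± 3.50 TPM with siNC. All 4 stood higher with siQ61K, by 1.38 for LIPA, 1.29 for CTSO, 1.16 for ASAH1 and 1.14 for LGMN on the log2 scale. Of the 12 other V-ATPase subunits 5 were higher and none lower (4 after correction), led by ATP6V0E1 (0.84), ATP6V1G1 (0.74), ATP6V1C1 (0.49) and ATP6AP2 (0.45) on the log2 scale. Of the 36 other autophagy genes 4 were higher and 4 lower (4 and 3 after correction), near the shares of all genes. Among them the receptor OPTN (1.30) and the LC3 relative GABARAP (0.71) were higher, while the protease ATG4D (-0.75) and the mitochondrial receptor BNIP3L (-0.67) were lower on the log2 scale. Of the 26 mTORC1 and regulator genes 5 were higher and 1 lower (6 and 1 after correction). The Rag GTPase RRAGB (1.46), LAMTOR3 of the docking complex (0.70) and the transcription factor FOXO3 (0.57) were higher, and the mTORC1 subunit RPTOR (-0.70) was lower.

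Under siQ61K, poly(dA:dT) was set against DMSO in a comparison that shares its DMSO libraries with the first. CTSA, CTSB, CTSD, CTSZ, MCOLN1, GAA, ULK1 and TFE3 were lower with poly(dA:dT), while CTSL was not called. As deposited, 2 of the 36 genes were called higher and 14 lower with poly(dA:dT), where 6.92% of all genes were higher and 18.3% lower, with a median of -0.34, beside -0.15 over all genes. Scaling moves that background: the median of all genes was -0.01 after median-of-ratios scaling and -0.01 after quantile normalization, and the share of calls that were higher was 27.5% as deposited, 52.6% after median-of-ratios scaling and 47.7% after quantile normalization. Relative to the shifted background, 6 of the 36 were called higher and 11 lower after median-of-ratios scaling, and 4 and 14 after quantile normalization. Of all genes 24.2% and 25.0% were called in these fits. After GC and length correction 1 was higher and 7 lower, where 2.7% of all genes were higher and 7.55% lower. Without replicate 3 of siQ61K DMSO and replicate 2 of siQ61K poly(dA:dT) none of the 36 was called by limma (14 had an unadjusted p under 0.05), and 137 of all genes were. Leaving out siQ61K poly(dA:dT) replicate 2 alone left 7 of the 36, and replicate 3 alone left 8. Of all genes 11.1% were called in each of these fits, against 25.2% as deposited.

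The 7 genes called lower in both fits were LAMP1, CD63, MCOLN1, CTSB, CTSZ, SQSTM1 and ULK1. ULK1 averaged 11.3 ± 2.56 TPM with poly(dA:dT) and 23.9 ± 3.58 TPM with DMSO (SD, n = 3 each), which limma put at -1.03 (SE 0.16, adjusted p = 0.0032) in log2 units. MCOLN1 averaged 11.4 ± 1.86 TPM with poly(dA:dT) and 20.5 ± 0.754 TPM with DMSO, at -0.80 (SE 0.17, adjusted p = 0.0078) in limma. CTSB averaged 482 ± 88.8 TPM with poly(dA:dT) and 832 ± 118 TPM with DMSO, at -0.79 (SE 0.15, adjusted p = 0.0055) in limma. In none of these 3 genes did the knockdown call hold with poly(dA:dT). CTSZ averaged 71.7 ± 22.4 TPM with poly(dA:dT) and 114 ± 11.5 TPM with DMSO, at -0.71 (SE 0.18, adjusted p = 0.014) in limma. SQSTM1 averaged 439.6 ± 53.9 TPM with poly(dA:dT) and 650.1 ± 28.1 TPM with DMSO, at -0.57 (SE 0.11, adjusted p = 0.0056) in limma. SQSTM1 was above the siNC libraries in both treatments. LAMP1 (-0.51) and CD63 (-0.49) fell by less on the log2 scale.

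Lower as deposited but not after correction were TFE3 at -0.95 (SE 0.20, adjusted p = 0.0069), GAA at -0.84 (SE 0.16, adjusted p = 0.0057), CTSD at -0.64 (SE 0.15, adjusted p = 0.011), ATG9A at -0.60 (SE 0.15, adjusted p = 0.015) and CTSA at -0.60 (SE 0.15, adjusted p = 0.015) in log2 units in limma, with ATP6AP1 (-0.56) and NPC1 (-0.52). TFE3 averaged 19.5 ± 6.36 TPM with poly(dA:dT) and 37.4 ± 4.01 TPM with DMSO, and GAA 26.7 ± 3.77 TPM with poly(dA:dT) and 48.7 ± 7.66 TPM with DMSO. ATP6V1H was higher as deposited at 0.57 (SE 0.16, adjusted p = 0.02) and NPC2 at 0.41 (SE 0.13, adjusted p = 0.031) in limma, neither after correction. ATP6V0D1, at 139 ± 10.4 TPM with poly(dA:dT) and 137 ± 7.82 TPM with DMSO, was not called as deposited (0.02) and was called higher after correction (0.32, limma adjusted p = 0.035). Among the pathway lists, 5 of 41 other lysosomal genes were higher and 8 lower, which came to 2 and 1 after correction. Over all genes 6.92% were higher and 18.3% lower (2.7% and 7.55% after correction), so the share lower was near that of all genes. Of the other lysosomal genes, GALNS (-0.79), IDUA (-0.85), MAN2B1 (-0.78) and NAGPA (-0.76) were lower on the log2 scale, and MAN2B1 alone of the 4 kept its call after correction. The highest log2 fold change of the 41 was 1.01. Of the other V-ATPase subunits 2 were higher and 2 lower, of the other autophagy genes 5 and 7, and of the mTORC1 and regulator genes 3 and 5. After correction these were 1 and 0, 3 and 0, and 1 and 3. Among the V-ATPase subunits ATP6V0E1 (0.59) and ATP6AP2 (0.57) were higher and TCIRG1 (-0.47) and ATP6V0C (-0.38) lower on the log2 scale. Among the autophagy genes ATG12 (1.00) and ATG5 (0.63), which form a conjugate with each other, were higher and AMBRA1 (-1.14) and ATG4D (-0.77) lower. RPTOR (-1.03) and AKT1S1 (-0.97) were lower, and LAMTOR5 (0.78) higher, in both fits.

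Under siNC, poly(dA:dT) changed none of the 36 genes past the threshold in limma. Of all genes 0.122% were called, 18 in number, and 1 of the 36 had an unadjusted p under 0.05. After correction limma called none either, where 0.211% of all genes were called, with 3 of the 36 at an unadjusted p under 0.05, and none was called in any other fit tried. The log2 fold changes ran from -0.34 to 0.29. SQSTM1, for example, averaged 255 ± 25.4 TPM with poly(dA:dT) and 286 ± 18.6 TPM with DMSO (SD, n = 3 each), with a 95% interval of -0.40 to 0.06 for its log2 fold change. GAA averaged 18.7 ± 2.58 TPM with poly(dA:dT) and 15.3 ± 2.32 TPM with DMSO, with an interval of -0.08 to 0.62. No gene of the 4 pathway lists was called.

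**Figure D4:**
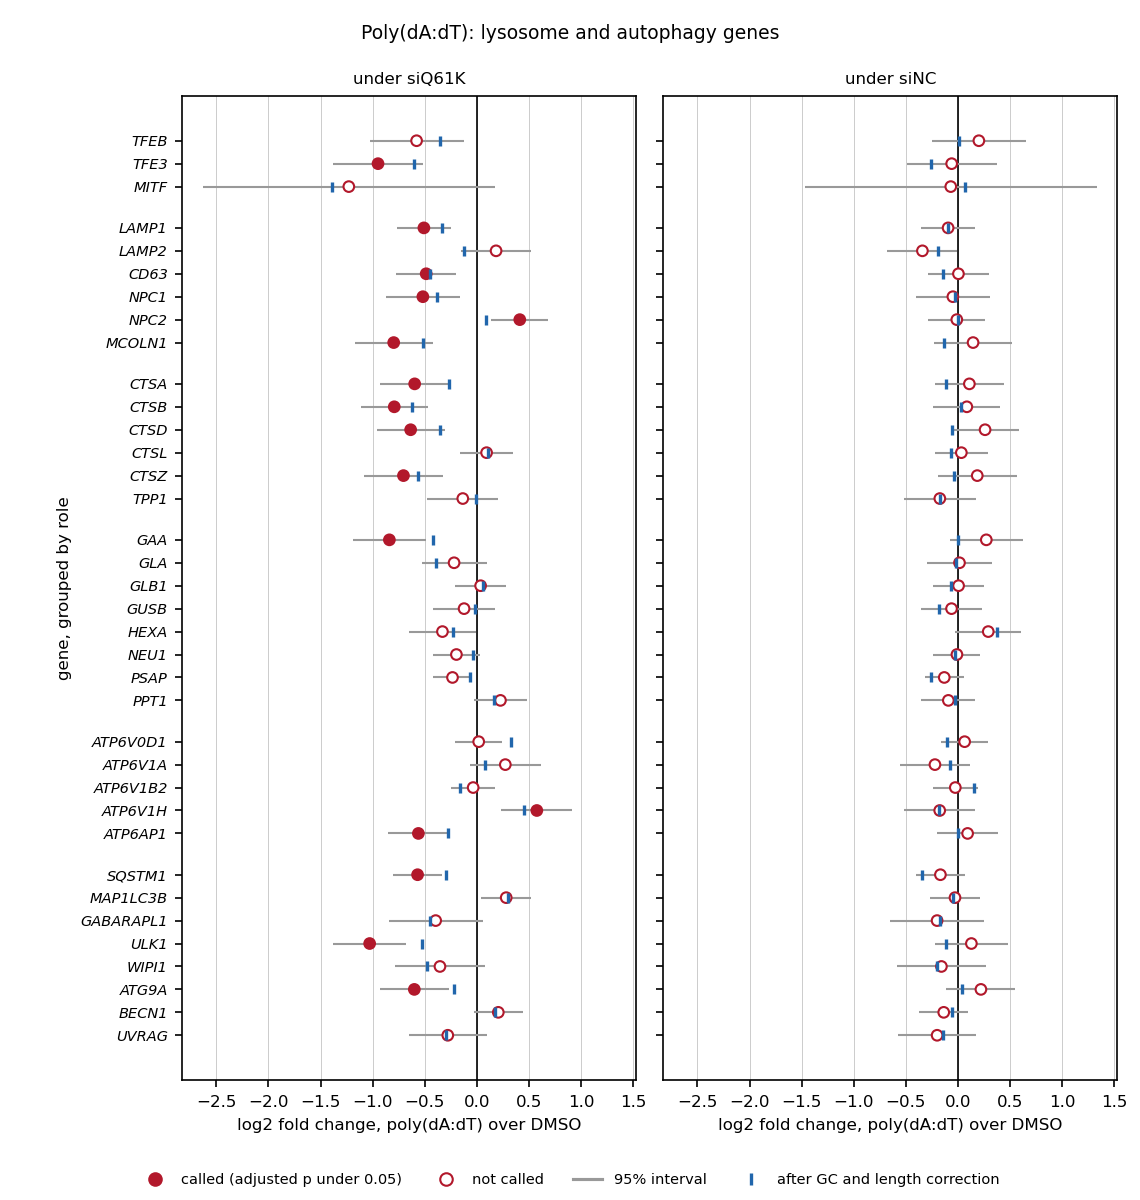
Log2 fold change of each gene, poly(dA:dT) over DMSO, under siQ61K (left) and under siNC (right), with symbols as in the plot of the knockdown comparisons. Under siQ61K 16 circles are filled, and under siNC none is.

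The interaction compared the siRNAs for how the genes responded to poly(dA:dT). It is the log2 fold change with poly(dA:dT) under siQ61K less the one under siNC, uses all 12 libraries, and was called for 11 of the 36 genes, 1 higher and 10 lower, where 6% of all genes were higher and 12.1% lower. The 10 were TFE3, CTSA, CTSB, CTSD, CTSZ, GAA, MCOLN1, ATP6AP1, ULK1 and ATG9A, and the 1 was ATP6V1H. Over all genes 33.2% of the calls were higher as deposited, 47.5% after median-of-ratios scaling and 46.5% after quantile normalization. After GC and length correction limma called none of the 36, where 1.62% of all genes were called, and 8 had an unadjusted p under 0.05. The adjusted p nearest to the threshold in that fit were 0.085 for CTSB and 0.089 for ATP6V0D1 in limma. Without replicate 3 of siQ61K DMSO and replicate 2 of siQ61K poly(dA:dT), ULK1 alone was called, where 3.74% of all genes were.

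The strongest differences were ULK1 at -1.16 (SE 0.23, adjusted p = 0.011) and GAA at -1.11 (SE 0.23, adjusted p = 0.011) in limma, both in log2 units, and these with CTSB held in all 12 fits that each left out 1 library. MCOLN1 followed at -0.94 (SE 0.25, adjusted p = 0.022), CTSD at -0.90 (SE 0.21, adjusted p = 0.018), CTSZ at -0.89 (SE 0.25, adjusted p = 0.029) and TFE3 at -0.89 (SE 0.28, adjusted p = 0.046) in limma. The others were CTSB at -0.88 (SE 0.21, adjusted p = 0.018), ATG9A at -0.82 (SE 0.22, adjusted p = 0.023), CTSA at -0.71 (SE 0.22, adjusted p = 0.04) and ATP6AP1 at -0.65 (SE 0.19, adjusted p = 0.035) in limma. ATP6V1H had the only positive value called, 0.75 (SE 0.22, adjusted p = 0.036) in limma. After correction the differences were -0.41 for ULK1, -0.42 for GAA and -0.65 for CTSB. Leaving out 1 library moved the count from 11 to between 3 and 17, where 6.66% to 26.4% of all genes were called. It was 3 without siNC DMSO replicate 1, 4 without siNC poly(dA:dT) replicate 1, siQ61K poly(dA:dT) replicate 2 or siQ61K poly(dA:dT) replicate 3, 6 without siNC DMSO replicate 2, siNC poly(dA:dT) replicate 2 or siQ61K DMSO replicate 1, 7 without siNC poly(dA:dT) replicate 3 or siQ61K DMSO replicate 3, and 17 without siQ61K poly(dA:dT) replicate 1. Of the pathway lists, 10 of 41 other lysosomal genes, 7 of 12 V-ATPase subunits, 11 of 36 autophagy genes and 6 of 26 mTORC1 and regulator genes were called in either direction as deposited, where 6% of all genes were higher and 12.1% lower. After correction the counts were 0, 0, 1 and 1. AKT1S1, at -1.33 on the log2 scale, was called in both fits, while MAN2B1 (-1.04), ATG4D (-1.20) and MLST8 (-1.07) were called as deposited only.

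GC content was set beside these values. The genes' longest transcripts had a GC content of 37.7 to 64.2% with a median of 51.6%, beside 48.2% over the 14668 genes tested that had a reference value, and 25 of the 36 lay above that median. Across all these genes the rank correlation of GC content with log2 fold change was 0.50 in the knockdown with DMSO and -0.24 in the knockdown with poly(dA:dT). It was -0.57 for poly(dA:dT) under siQ61K, 0.50 under siNC and -0.65 for the interaction. Across the 36 genes the same correlations were 0.56, -0.20, -0.64, 0.64 and -0.67. After correction those over all genes lay between -0.09 and 0.02, and those across the 36 were 0.19, -0.01, -0.35, -0.14 and -0.25. The genes share their libraries in each case, so these values describe the 12 libraries. Beyond this correction, the part of GC content in the calls was not tested.

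**Figure D5:**
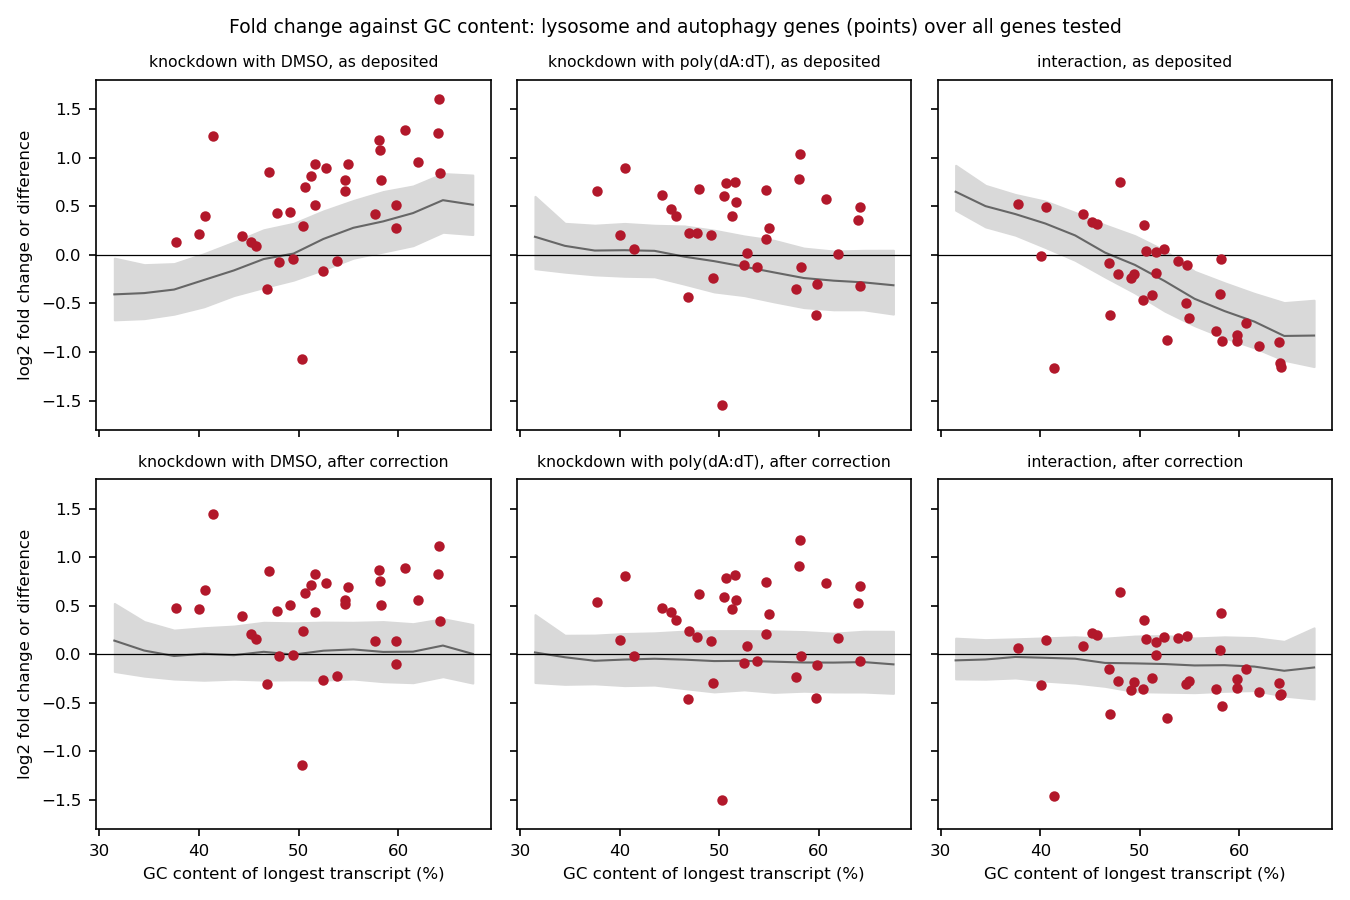
Log2 fold change or difference of the 36 genes (red points) against the GC content of the longest transcript, in the values as deposited (top) and after GC and length correction (bottom), for both knockdown comparisons and the interaction. The grey line is the median and the grey band the middle 50% of all genes tested in bins of GC content; with DMSO most red points lie above the line in both rows, and in the top interaction panel points and line both slope down.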

How the data were processed

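The authors deposited RNA-seq of 12 HT1080 libraries as 1 table of TPM per gene symbol. The submitters' processing notes name Salmon 0.8.0 and hg19. The annotation is not given in the sources used here, nor is how transcripts were summed. Sample titles gave the groups and replicate numbers, and the table's columns were matched to them by name. The table held 56227 entries; 984 entries with 58 shared symbols were not used, which left 55243.

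Values were analysed as log2(TPM + 1), which makes fold changes of low genes too small. One model (limma 3.58.1 in R 4.3.3), which let the variance follow the mean level, held the 12 libraries in their 4 groups. Its p-values were adjusted by Benjamini-Hochberg over the 14722 genes at 0.05, and intervals are at 95%. An exact permutation test of 3 libraries against 3 cannot go below p = 0.1 and was not used for calls. The corrected fit removed from each library a smooth trend (lowess, span 0.3) on the GC content, then the length, of the longest GENCODE transcript, known for 14668 genes and for the 36.

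Each of the 36 genes is named. By the naming rule, library values are given for genes called in 2 or more comparisons or in both fits of 1 comparison and for TFEB, TFE3, MITF, SQSTM1 and MAP1LC3B, errors and adjusted p for up to 10 calls in each direction of a comparison, those with the largest fold changes, and up to 4 called genes per pathway list, those with the largest fold changes whose higher group averaged 5 TPM or more. A few pathway genes that it picks are left unreported. The 36 genes, the pathway lists and the tests were chosen with earlier results of these data known. The fit was tested on simulated data, with GC trends drawn at random for each library. That test could not show how the fits behave where the trend moves with the groups. Alternatives were a pseudocount of 0.1 or 5, no filter on low values, a mean of 5 TPM or more, scaling by median of ratios or by quantiles, the GC and length correction, a replicate block, no variance trend, a fit of only the groups compared, and leaving out each library in turn or both named ones. The corrected fit without both was added after the data were seen.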

Additional observations from a re-analysis of the deposited data

Results flagged for a closer look

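For 11 of the 36 genes, a test of the difference itself put the change with poly(dA:dT) apart under siQ61K and under siNC. Of all genes 6% were called higher and 12.1% lower by the same test. The log2 response under siQ61K minus that under siNC was -1.16 for ULK1, -1.11 for GAA and -0.94 for MCOLN1. Among the cathepsins it was -0.90 for CTSD, -0.89 for CTSZ, -0.88 for CTSB and -0.71 for CTSA. It was -0.89 for TFE3, -0.82 for ATG9A and -0.65 for ATP6AP1, and it was positive for ATP6V1H, at 0.75. The limma adjusted p ran from 0.011 to 0.046. After GC and length correction none of the 11 passed, and the values were -0.41 for ULK1, -0.42 for GAA, -0.39 for MCOLN1, -0.65 for CTSB and 0.64 for ATP6V1H. ULK1, GAA and CTSB kept the call whichever single library was left out. The other 8 lost it in some of these 12 fits, from 1 fit for CTSD to 10 for TFE3. Without replicate 3 of siQ61K DMSO and replicate 2 of siQ61K poly(dA:dT), ULK1 alone was called, where 3.74% of all genes were.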

How the results depend on the processing

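The calls by knockdown with DMSO numbered 20 of 36 in the values as deposited and 18 to 23 in every alternative. With poly(dA:dT) they numbered 18, and 13 to 20 in the alternatives. Of all genes 31.5% and 21.4% were called as deposited. In the alternatives these shares ran from 20.7% to 34.0% and from 14.3% to 25.5%, with none computed for other filters on low values. Under siQ61K the 16 calls by poly(dA:dT) became 8 after GC and length correction, 6 with a replicate block and that correction, and 0 without both libraries, corrected or not. Of all genes 25.2% were called as deposited, 10.3% after the correction and 9.16% with the block and the correction. Without both libraries the share was 0.931%, and 0.661% with the correction. The 11 interaction calls became 2 with no filter, 6 with no variance trend and 1 without both libraries. Of all genes 18.1% were called as deposited, 12.5% with no variance trend and 3.74% without both libraries. With no filter 1026 genes were called, against 2662 as deposited. The interaction calls were 0 after the correction, with the block and the correction, and with the correction without both libraries, where CTSA turned to 0.10. Of all genes 1.62%, 1.32% and 0.348% were called in those fits. Leaving out 1 library at a time gave 18 to 20 calls for knockdown with DMSO, 13 to 19 with poly(dA:dT), 7 to 19 for poly(dA:dT) under siQ61K, 0 under siNC and 3 to 17 for the interaction. Of all genes the shares called ran from 20.7% to 33.9%, 14.3% to 25.5%, 11.1% to 31.3%, 0.048% to 0.251% and 6.66% to 26.4%, in that order.

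After the correction the other lysosomal genes had 3 calls for poly(dA:dT) under siQ61K and 0 for the interaction, against 13 and 10 as deposited. The other V-ATPase subunits had 2 for knockdown with DMSO, 1 for poly(dA:dT) under siQ61K and 0 for the interaction, against 5, 4 and 7. The other autophagy genes had 3 for poly(dA:dT) under siQ61K and 1 for the interaction, against 12 and 11, and the mTORC1 and regulator genes had 4 and 1, against 8 and 6. Of all genes 23.2% were called for knockdown with DMSO after the correction, 10.3% for poly(dA:dT) under siQ61K and 1.62% for the interaction. As deposited these shares were 31.5%, 25.2% and 18.1%. The cause of the lower counts was not tested. Single genes called kept direction and call in 246 results of alternatives other than leaving out 1 library, and lost the call in 14, for knockdown with DMSO. With poly(dA:dT) these numbers were 211 and 23, for poly(dA:dT) under siQ61K 143 and 65, and for the interaction 73 and 58.

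The replicate numbers showed no clear pairing of the libraries: deviations of same-numbered libraries correlated at -0.26 to 0.23, over 0.1 in 3 of 18 pairs. With 3 libraries per group and a GC trend in single libraries, this check cannot exclude a shared culture or day. With the replicate number as a block the counts were 20, 16, 16, 0 and 9 for both knockdown comparisons, poly(dA:dT) under siQ61K, under siNC and the interaction. Of all genes 30.1%, 20.1%, 23.3%, 0.149% and 15.2% were called, in that order. With 3 libraries a group and no depth, values of low genes such as MITF and TFEB are the least precise.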
